A study of Homo sapiens with 6 samples.

Results

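SR proteins and heterogeneous nuclear ribonucleoproteins (hnRNPs), together with the kinases that phosphorylate SR proteins, were examined in MOLM13 cells treated with the METTL3 degrader ZW27941. The genes were chosen by symbol: 12 SR and SR-like proteins, 22 hnRNPs and 6 kinases, 40 of the 56305 genes counted. All 40 passed the filter on low counts, as did 20399 genes in all. MOLM13 is a human acute myeloid leukemia cell line whose labels give a FLT3 internal tandem duplication and the translocation t(9;11)(p22;q23), both carried by treated and control cells alike. Cells received either the vehicle DMSO (3 libraries) or 1 μM ZW27941 (3 libraries) for 24 h, and total RNA was sequenced. ZW27941 is a proteolysis-targeting chimera that joins a METTL3 ligand to a ligand of the VHL ubiquitin ligase. A single cell line was used.

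SR proteins hold 1 or more RNA recognition motifs and a tail of alternating arginine and serine, and they mostly promote the inclusion of the exons they bind. SRPK kinases phosphorylate that tail in the cytoplasm before import, and CLK kinases do so in the nucleus. hnRNPs coat nascent RNA, often oppose SR proteins at nearby sites, and take part in export, stability and translation. Many genes of both families limit their own output: the protein drives inclusion of a poison exon or retention of an intron, and the resulting transcript is degraded by nonsense-mediated decay or kept in the nucleus. Ties to the METTL3 mark m6A are also known, since HNRNPC and RBMX bind sites that m6A opens in the RNA fold, and HNRNPA2B1 has been described as binding methylated transcripts.

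Each library held 143454176 to 178744976 counts on genes. This is more than the number of raw reads that the labels state for a sample, so what 1 count stands for is not settled, and these totals may overstate the depth. Samples of one group correlated at 0.996 or above over log2 normalized counts. METTL3 itself was at 120, 122 and 122 CPM (counts per 1000000 counts on genes, normalized by edgeR's TMM method) in DMSO and at 119, 121 and 128 CPM on ZW27941, with overlapping groups. Since the compound acts on the protein, this transcript does not check the labels. All 11 myeloid leukemia markers examined were detected, FLT3 at 563 CPM and CEBPA at 529 CPM in DMSO, whereas KIT (0.417 CPM) and CD14 (1.54 CPM) were near 0. Of these markers 5 were higher and 1 was lower on ZW27941 at the threshold given below. That is 54.5% called, beside 30.1% of all genes tested, a share not matched for level. The part of these markers in the results below was not tested. Of 8 T, B, erythroid and epithelial markers, 5 did not pass the filter and HBB had 0 counts in every library. The labels do not say whether libraries of a group came from separate cultures, so p-values measure the spread between these libraries, which may be technical. In addition, values are relative to all other transcripts of the library, and fewer cells of a type and less RNA per cell cannot be told apart.

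On ZW27941, 10 of the 40 genes rose and 8 fell, judged by the quasi-likelihood test of edgeR at an adjusted p of 0.05 (Benjamini-Hochberg method, over the 20399 genes tested). Over all genes, 30.1% passed this threshold, 16.3% higher and 13.8% lower, against 45% of the members. The share called was 25% of SR proteins, 50% of hnRNPs and 66.7% of kinases. These shares were not matched for level. The lowest group mean of a member was 40.1 CPM (SRPK2), whereas the genes tested include ones as low as KIT. Groups did not overlap for 13 members that were higher and 12 that were lower, where 21.7% of all genes were higher and 19.9% lower without overlap, 41.6% in all. The changes were small. The largest rise was 19.3% (HNRNPF), the largest fall 10.4% (CLK1), and 35 members changed by less than 10%. By family, 2 SR proteins rose and 1 fell, 7 hnRNPs rose and 4 fell, and 1 kinase rose while 3 fell. The median log2 fold change was 0.048 for SR proteins, 0.045 for hnRNPs and −0.077 for the kinases, beside −0.0019 for all genes tested. With any one of the DMSO libraries left out, 5 members were lower instead of 8, and with upper quartile normalization 6 were higher and 12 lower. A core of 11 members kept its call under each other normalization, filter and test and with any library left out, all at an adjusted p under 0.05: SRSF4, HNRNPF, HNRNPR, HNRNPH2, HNRNPUL2 and RBMX, which rose, and HNRNPC, HNRNPH1, CLK1, CLK3 and CLK4, which fell.

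**Figure D1:**
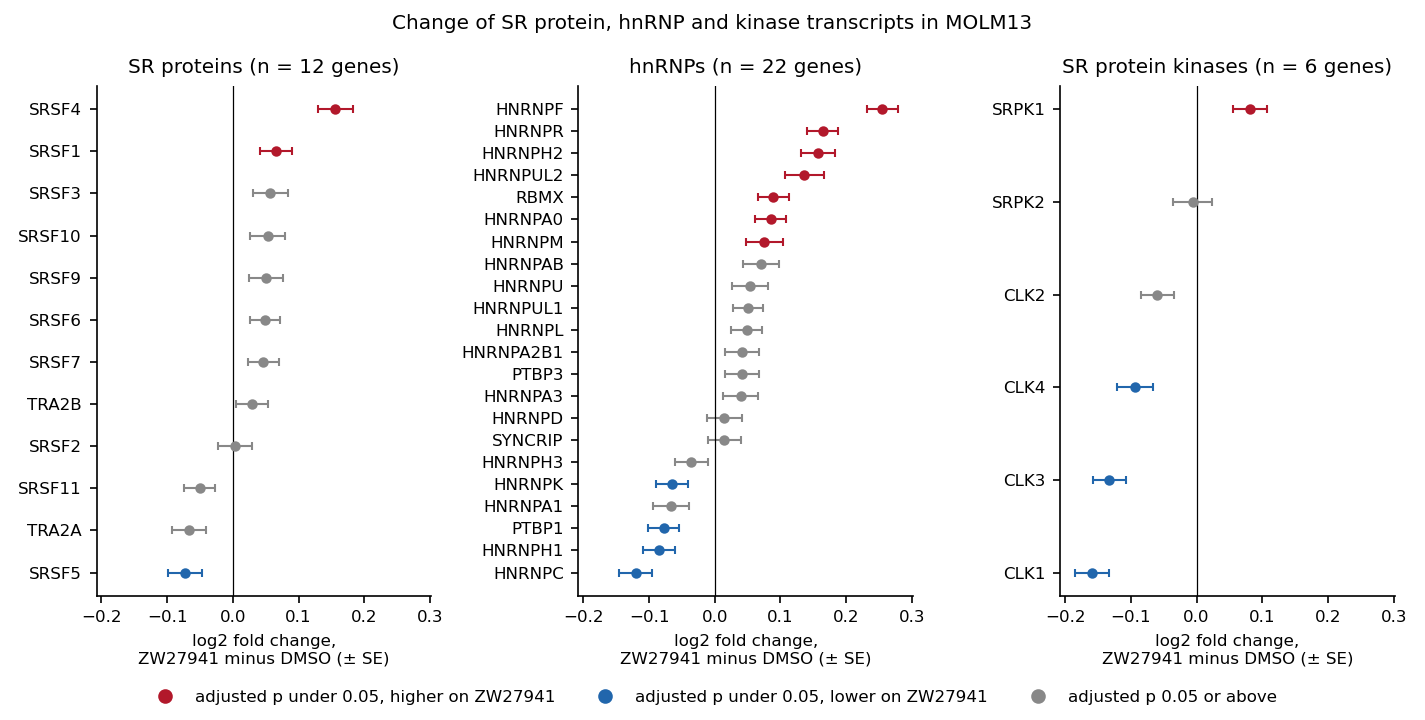
Log2 fold change on ZW27941 against DMSO (horizontal axis) for each SR protein, hnRNP and kinase, with its standard error. Red and blue mark genes that rose or fell at an adjusted p of 0.05. All values lie between −0.16 and 0.25, and 5 of the 6 kinases lie below 0.

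Taken as a share of all counts on genes, SR proteins made up 0.321%, 0.311% and 0.311% of the DMSO libraries and 0.321%, 0.324% and 0.324% of the ZW27941 libraries. The hnRNPs made up 1.49%, 1.45% and 1.46% in DMSO and 1.49%, 1.49% and 1.48% on ZW27941. In both families DMSO replicate 1 was level with the treated libraries and above the other 2 controls. The kinases took 0.0548%, 0.0544% and 0.0543% in DMSO and 0.0526% in each ZW27941 library, with no overlap. No test was run on these sums, whose members were chosen with results known.

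Promoters are printed below for the hnRNP and the SR protein with the largest rise (HNRNPF, SRSF4). Those of the hnRNP and the kinase with the largest fall (HNRNPC, CLK1) follow. Each runs 5′ to 3′ on the strand of the gene, from 250 bases before to 50 bases after the RefSeq start on GRCh38.p14. The windows lie at chr10:43397228-43397527 (HNRNPF), chr1:29181851-29182150 (SRSF4), chr14:21269393-21269692 (HNRNPC) and chr2:200864512-200864811 (CLK1), each on the minus strand. The HNRNPF window lies inside the gene as GENCODE v29 gives it (chr10:43385617-43409166), not in front of its annotated 5′ end. Capitals mark matches, on either strand, to GGGCGG (the box bound by SP and KLF factors), CCAAT (bound by NF-Y), CCGGAAG (the ETS core), TATAAA (the TATA box), CACGTG (the E-box), TGACGTCA (the cyclic AMP response element), AAGATGGC (YY1) or GCGCATGC (NRF1), none of which contains another.
HNRNPF: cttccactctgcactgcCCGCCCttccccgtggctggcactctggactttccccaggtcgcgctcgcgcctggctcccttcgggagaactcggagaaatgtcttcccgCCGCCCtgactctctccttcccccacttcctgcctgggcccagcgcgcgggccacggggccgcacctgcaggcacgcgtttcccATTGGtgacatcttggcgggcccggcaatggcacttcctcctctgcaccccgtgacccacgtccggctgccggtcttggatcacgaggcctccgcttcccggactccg
SRSF4: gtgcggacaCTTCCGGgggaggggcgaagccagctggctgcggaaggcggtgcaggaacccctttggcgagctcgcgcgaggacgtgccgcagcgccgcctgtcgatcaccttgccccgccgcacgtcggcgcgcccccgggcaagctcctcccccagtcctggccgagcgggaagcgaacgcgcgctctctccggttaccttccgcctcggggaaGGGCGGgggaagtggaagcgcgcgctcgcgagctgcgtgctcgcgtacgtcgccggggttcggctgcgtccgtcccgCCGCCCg
HNRNPC: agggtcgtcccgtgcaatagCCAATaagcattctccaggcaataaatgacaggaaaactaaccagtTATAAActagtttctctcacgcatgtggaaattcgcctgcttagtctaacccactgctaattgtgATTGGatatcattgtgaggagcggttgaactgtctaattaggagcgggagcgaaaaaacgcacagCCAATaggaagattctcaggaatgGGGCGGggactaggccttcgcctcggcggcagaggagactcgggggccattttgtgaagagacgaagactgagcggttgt
CLK1: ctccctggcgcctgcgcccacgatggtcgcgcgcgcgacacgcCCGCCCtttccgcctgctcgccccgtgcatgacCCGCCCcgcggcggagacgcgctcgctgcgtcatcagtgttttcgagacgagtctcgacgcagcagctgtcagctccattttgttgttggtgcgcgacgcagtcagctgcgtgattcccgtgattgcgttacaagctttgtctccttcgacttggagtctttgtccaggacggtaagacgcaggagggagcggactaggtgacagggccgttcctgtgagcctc
HNRNPF, SRSF4 and CLK1 each held 2 copies of GGGCGG. HNRNPF also held 1 copy of CCAAT, and SRSF4 1 of CCGGAAG. HNRNPC held 1 copy of GGGCGG, 3 of CCAAT and 1 of TATAAA. RefSeq promoters were matched for 37 of the 40 genes (not SRSF2, TRA2A and HNRNPA1). GGGCGG was in 22 of them (59.5%) beside 45.0% of all 35116 promoters, and CCAAT was in 14 (37.8%) beside 34.6%. CACGTG was in 7 member promoters (18.9%) beside 7.26% of all, TATAAA in 7 (18.9%) beside 11.5%, CCGGAAG in 5 (13.5%) beside 10.3%, and GCGCATGC in 2 (5.41%) beside 3.05%. TGACGTCA and AAGATGGC were in 0 of the 37, beside 1.85% and 2.89%. These are letter matches in short windows and no test was made of them.

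The F/H group of hnRNPs, which bind runs of guanines near splice sites and poly(A) sites, moved in both directions. HNRNPF (chr10:43385617-43409166 of GRCh38, minus strand) was at 369, 371 and 371 CPM in DMSO and at 441, 436 and 449 CPM on ZW27941. All 3 treated libraries lay far above the controls, which were within 2 CPM of each other. The log2 fold change was 0.25 (standard error 0.024, edgeR adjusted p = 6.27e-08), with the lowest p of the 40 genes, and it ran from 0.23 to 0.26 over the alternatives. HNRNPH2, an X-linked gene for a protein very close to that of HNRNPH1, went from 68.7, 68.1 and 67.9 CPM to 75.3, 75.5 and 77.4 CPM. This was again a rise without overlap (log2 fold change 0.16, standard error 0.025, edgeR adjusted p = 6.63e-05). HNRNPH1, the most counted gene of the group, fell from 819, 819 and 810 CPM to 762, 770 and 776 CPM (log2 fold change −0.085, standard error 0.024, edgeR adjusted p = 0.00924). HNRNPH3, the smallest of these proteins, did not pass (198 ± 2.23 CPM in DMSO and 193 ± 5.25 CPM on ZW27941, SD, n = 3 each). Its log2 fold change of −0.036 was −0.017 without ZW27941 replicate 1 and −0.059 without ZW27941 replicate 3. Since HNRNPF and HNRNPH1 went opposite ways, their ratio of counts within a library rose from 0.454 to 0.574, a value that no scaling between libraries can change.

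HNRNPC, which coats nascent transcripts as a tetramer, binds uridine tracts and keeps exons out of antisense Alu elements, fell by the largest step among the hnRNPs. It was at 855, 848 and 876 CPM in DMSO and at 774, 793 and 806 CPM on ZW27941. Every treated library was below every control, and the log2 fold change was −0.12 (standard error 0.025, edgeR adjusted p = 9.80e-04). RBMX, also called hnRNP G, moved the other way, from 340, 335 and 336 CPM to 358, 359 and 359 CPM. The groups did not overlap, and the 3 treated libraries were within 2 CPM of each other (log2 fold change 0.089, standard error 0.023, edgeR adjusted p = 0.00542). RBMXL1, an intronless copy of RBMX on another chromosome, shares much of its sequence and also rose, from 18.3 to 20.4 CPM (log2 fold change 0.15, edgeR adjusted p = 0.00230). HNRNPA2B1, also named above for a tie to m6A, overlapped between groups (1569, 1551 and 1552 CPM in DMSO and 1619, 1562 and 1628 CPM on ZW27941) and did not pass (edgeR adjusted p = 0.240).

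HNRNPR and SYNCRIP (hnRNP Q) are close paralogs that act in mRNA transport, stability and translation. HNRNPR rose from 248, 240 and 239 CPM to 269, 272 and 273 CPM (log2 fold change 0.16, standard error 0.024, edgeR adjusted p = 2.24e-05). The controls of SYNCRIP spread from 381 to 401 CPM and its treated libraries from 390 to 402 CPM, so the groups overlapped (edgeR adjusted p = 0.717). Within libraries, the ratio of HNRNPR to SYNCRIP went from 0.619 to 0.687 without overlap. HNRNPU, a chromatin-associated scaffold protein, was with HNRNPA1 the gene with the most counts and did not pass (2831 ± 66.5 CPM in DMSO, 2939 ± 69.5 CPM on ZW27941, SD, n = 3 each). It passed only without ZW27941 replicate 3 (edgeR adjusted p = 0.0233, from 0.0233 to 0.456 over the alternatives). Its relative HNRNPUL2 rose from 47.9, 49.0 and 50.8 CPM to 53.4, 53.3 and 55.7 CPM (log2 fold change 0.14, standard error 0.029, edgeR adjusted p = 0.00118). In GENCODE v29, 44.1% of the exon bases of HNRNPUL2 also belong to a read-through transcript with BSCL2, so its count depends on how shared reads were assigned. The other relative, HNRNPUL1, had a log2 fold change of 0.051 and did not pass (edgeR adjusted p = 0.107).

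HNRNPA0, the single-exon member of the A/B group that binds AU-rich elements, rose from 180, 178 and 179 CPM to 191, 187 and 191 CPM (log2 fold change 0.085, standard error 0.023, edgeR adjusted p = 0.00794). The call was lost with upper quartile normalization, at an edgeR adjusted p of 0.0512. HNRNPA1, a repressor of many exons, was at 2723, 2724 and 2742 CPM in DMSO and at 2504, 2642 and 2671 CPM on ZW27941. Every treated library was lower, but ZW27941 replicate 1 stood apart from the other 2 and the gene did not pass (log2 fold change −0.067, standard error 0.028, edgeR adjusted p = 0.0719). Without ZW27941 replicate 1 the log2 fold change was −0.039 (edgeR adjusted p = 0.323), whereas without ZW27941 replicate 3 it passed at 0.00599. DESeq2 (adjusted p = 0.0215), limma voom (0.0249) and upper quartile normalization (0.0176) called it too. HNRNPA3 and HNRNPAB had log2 fold changes of 0.039 and 0.071 and did not pass (edgeR adjusted p = 0.294 and 0.0549). HNRNPA3 was at 0.065 on the log2 scale without DMSO replicate 1 and at 0.022 without ZW27941 replicate 2. Without DMSO replicate 1, HNRNPAB passed with a log2 fold change of 0.10 (edgeR adjusted p = 0.010, from 0.010 to 0.259 over the alternatives). It also passed with library size only (0.0314), no filter (0.0262) and limma voom (0.0472). HNRNPD, which promotes decay of mRNAs with AU-rich elements, differed by 0.015 on the log2 scale (standard error 0.027), which was 0.046 without DMSO replicate 1 and −0.0054 without DMSO replicate 3.

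PTBP1, which binds pyrimidine tracts and represses neighbouring exons, fell from 540, 537 and 536 CPM to 513, 499 and 515 CPM (log2 fold change −0.078, standard error 0.024, edgeR adjusted p = 0.0173). Without DMSO replicate 1, 2 or 3 its edgeR adjusted p was 0.0585, 0.0583 and 0.0569, and without ZW27941 replicate 2 it was 0.119, so the call was lost. These fits also called fewer of all genes (4836 to 5196, against 6149). The log2 fold change of PTBP1 ran from −0.10 to −0.065 over the alternatives. PTBP3, its paralog of blood cells, overlapped between groups at 161 ± 4.37 and 166 ± 3.97 CPM (SD, n = 3 each), with a log2 fold change of 0.041 that was 0.019 without DMSO replicate 2 and 0.024 without ZW27941 replicate 2. HNRNPK, a protein with KH domains that binds cytosine-rich stretches, fell from 771, 748 and 767 CPM to 727, 732 and 727 CPM (log2 fold change −0.065, standard error 0.024, edgeR adjusted p = 0.0465). The call was lost without DMSO replicate 1, 2 or 3 (edgeR adjusted p = 0.153, 0.0577 and 0.166) and without ZW27941 replicate 1 or 2 (0.0946 and 0.109), with library size only (0.0851) and with no filter (0.102). HNRNPM, which binds GU-rich sites, passed with overlapping groups, 472, 459 and 456 CPM against 484, 470 and 509 CPM (log2 fold change 0.075, standard error 0.028, edgeR adjusted p = 0.0461). Its treated value depended on ZW27941 replicate 3, without which the log2 fold change was 0.041 (edgeR adjusted p = 0.209). The call was also lost without DMSO replicate 2 or 3 or ZW27941 replicate 1 (edgeR adjusted p = 0.146, 0.167 and 0.0586), with RLE normalization (0.0610), with upper quartile normalization (0.179) and with at least 10 counts in every library (0.0501). HNRNPL, which binds CA repeats, was higher in every treated library but did not pass (log2 fold change 0.049, edgeR adjusted p = 0.127).

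Among the SR proteins, SRSF4 had the clearest change. It was at 167, 163 and 160 CPM in DMSO and at 176, 187 and 183 CPM on ZW27941. The groups were separate, and the log2 fold change was 0.16 (standard error 0.026, edgeR adjusted p = 1.03e-04), between 0.13 and 0.18 over the alternatives. SRSF4, SRSF5 and SRSF6 are near relatives with a pair of RNA recognition motifs and long arginine-serine tails. SRSF5 went down, from 197, 194 and 196 CPM to 179, 190 and 189 CPM (log2 fold change −0.072, standard error 0.026, edgeR adjusted p = 0.0384). ZW27941 replicate 1 was the lowest of its libraries, and without it the log2 fold change was −0.046 (edgeR adjusted p = 0.244). The call was likewise lost without DMSO replicate 1, 2 or 3 (edgeR adjusted p = 0.118, 0.0659 and 0.111), with library size only (0.0694) and with no filter (0.0617). SRSF6 was higher in each treated library, 235, 231 and 235 CPM against 240, 244 and 242 CPM, and did not pass (edgeR adjusted p = 0.122). Within libraries, the ratio of SRSF4 to SRSF5 went from 0.833 to 0.976.

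SRSF1, the founding SR protein, rose from 354, 346 and 341 CPM to 362, 363 and 364 CPM, with the treated libraries much closer to each other than the controls (log2 fold change 0.066, standard error 0.024, edgeR adjusted p = 0.0424). This call was lost without DMSO replicate 2 or 3 (edgeR adjusted p = 0.118 and 0.187), without ZW27941 replicate 1, 2 or 3 (0.0720, 0.121 and 0.0520), with RLE normalization (0.0582) and with upper quartile normalization (0.201). SRSF9, its closest paralog, had a log2 fold change of 0.051 and overlapping groups, and 0.028 without ZW27941 replicate 3. SRSF3 and SRSF7, short SR proteins that also serve as adaptors for mRNA export, had log2 fold changes of 0.057 and 0.046 (edgeR adjusted p = 0.107 and 0.154). SRSF3 passed without ZW27941 replicate 1 (0.0487) and with library size only (0.0496), whereas its log2 fold change was 0.034 without ZW27941 replicate 3 (edgeR adjusted p = 0.322). SRSF2, which stays in the nucleus, was the SR protein with the smallest difference, at 293 ± 8.73 CPM in DMSO and 294 ± 3.24 CPM on ZW27941 (SD, n = 3 each).

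SRSF10 works as a repressor once dephosphorylated and had a log2 fold change of 0.053 (edgeR adjusted p = 0.148). Without DMSO replicate 1 this was 0.084 (edgeR adjusted p = 0.0298). SRSF11 was lower in each treated library (362, 354 and 360 CPM against 343, 349 and 347 CPM) and did not pass (edgeR adjusted p = 0.116). It passed with DESeq2 (adjusted p = 0.0374) and with upper quartile normalization (0.0220). TRA2A and TRA2B are SR-like proteins that bind GAA-rich enhancers. TRA2A was at 102, 103 and 100.2 CPM in DMSO and at 95.4, 99.1 and 96.7 CPM on ZW27941. Its groups did not overlap and it fell just short of the threshold (log2 fold change −0.067, standard error 0.025, edgeR adjusted p = 0.0502), which it passed without ZW27941 replicate 2 (0.0429) and with RLE normalization (0.0397), upper quartile normalization (0.0090), at least 10 counts in every library (0.0395), DESeq2 (0.0242) and limma voom (0.0461). TRA2B overlapped between groups (log2 fold change 0.030, edgeR adjusted p = 0.393, and 0.018 without ZW27941 replicate 2).

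All 4 CLK kinases were lower in every treated library than in any control, and 3 of them passed. CLK1 (chr2:200853009-200864744, minus strand) was at 118, 114 and 119 CPM in DMSO and at 103, 106 and 106 CPM on ZW27941. The log2 fold change of −0.16 (standard error 0.025, edgeR adjusted p = 5.67e-05) was the lowest of the 40 genes. CLK3 fell from 102, 106 and 106 CPM to 94.6, 96.4 and 95.5 CPM (log2 fold change −0.13, standard error 0.025, edgeR adjusted p = 3.26e-04). CLK4, the closest relative of CLK1, fell from 45.2, 45.0 and 45.0 CPM to 42.0, 43.0 and 41.7 CPM (log2 fold change −0.094, standard error 0.027, edgeR adjusted p = 0.0121). CLK2 (122, 125 and 122 CPM against 117, 116 and 121 CPM) did not pass (log2 fold change −0.060, standard error 0.025, edgeR adjusted p = 0.0802). It passed without ZW27941 replicate 3 (0.0135), with upper quartile normalization (0.0161) and with DESeq2 (0.0455). CLK1 and CLK4 are known for nuclear transcripts with retained introns, which a count per gene adds to the spliced mRNA.

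The SRPK kinases differed from this. SRPK1 rose from 120, 117 and 114 CPM to 123, 124 and 124 CPM (log2 fold change 0.082, standard error 0.026, edgeR adjusted p = 0.0189). The groups were separate, but the call was lost without DMSO replicate 3 (edgeR adjusted p = 0.133) or ZW27941 replicate 2 (0.0591) and with upper quartile normalization (0.0896). SRPK2 differed by −0.0059 on the log2 scale (standard error 0.030), and its sign changed with the normalization and with the libraries included. The ratio of SRPK1 to CLK1 counts went from 0.999 in DMSO to 1.18 on ZW27941, with no overlap between groups.

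**Figure D2:**
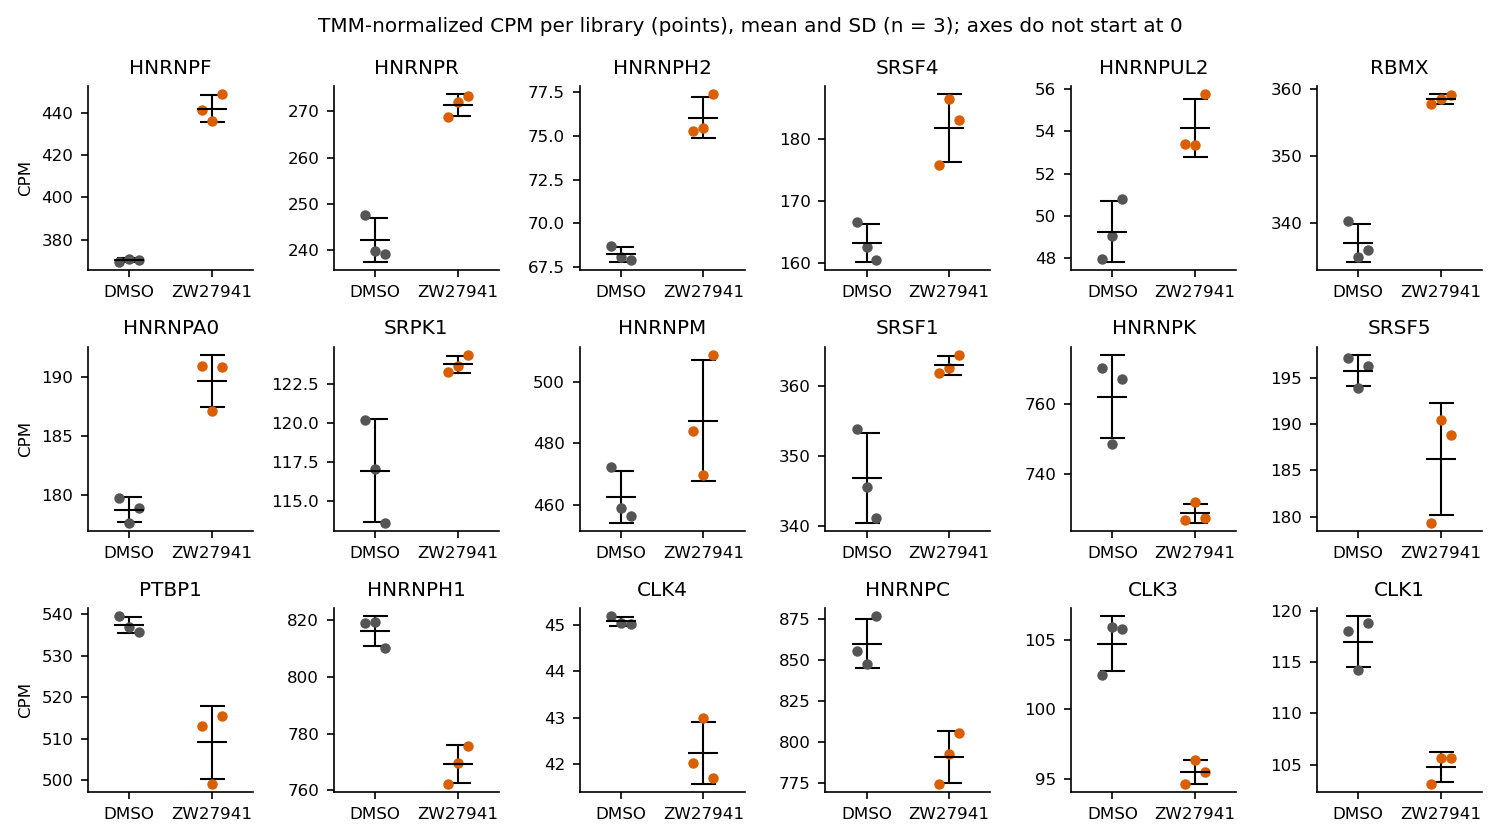
Normalized CPM in each library (points) of the 18 genes past an adjusted p of 0.05, with mean and SD (n = 3) for DMSO and ZW27941, ordered from the largest rise (HNRNPF) to the largest fall (CLK1). Vertical axes do not start at 0, and only HNRNPM has overlapping groups.

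Ratios of counts between related genes do not depend on how libraries are scaled against each other, and 20 such pairs were formed after the counts had been seen. In 16 of them (80%) the libraries of both groups did not overlap. No share over other pairs of genes was computed, so this count has no background. Several pairs share a gene, and with 3 libraries against 3 an exact permutation test cannot go below p = 0.10, so none was run. The largest differences in log2 ratio were 0.34 for HNRNPF to HNRNPH1, 0.24 for HNRNPH2 to HNRNPH1, 0.24 for SRPK1 to CLK1 and 0.23 for SRSF4 to SRSF5. HNRNPA2B1 to HNRNPA1 went from 0.571 to 0.615 and PTBP3 to PTBP1 from 0.300 to 0.326, both without overlap, although HNRNPA2B1, HNRNPA1 and PTBP3 did not pass on their own. SRSF9 to SRSF1, SRSF7 to SRSF3, HNRNPUL1 to HNRNPU and HNRNPUL2 to HNRNPU overlapped between groups.

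**Figure D3:**
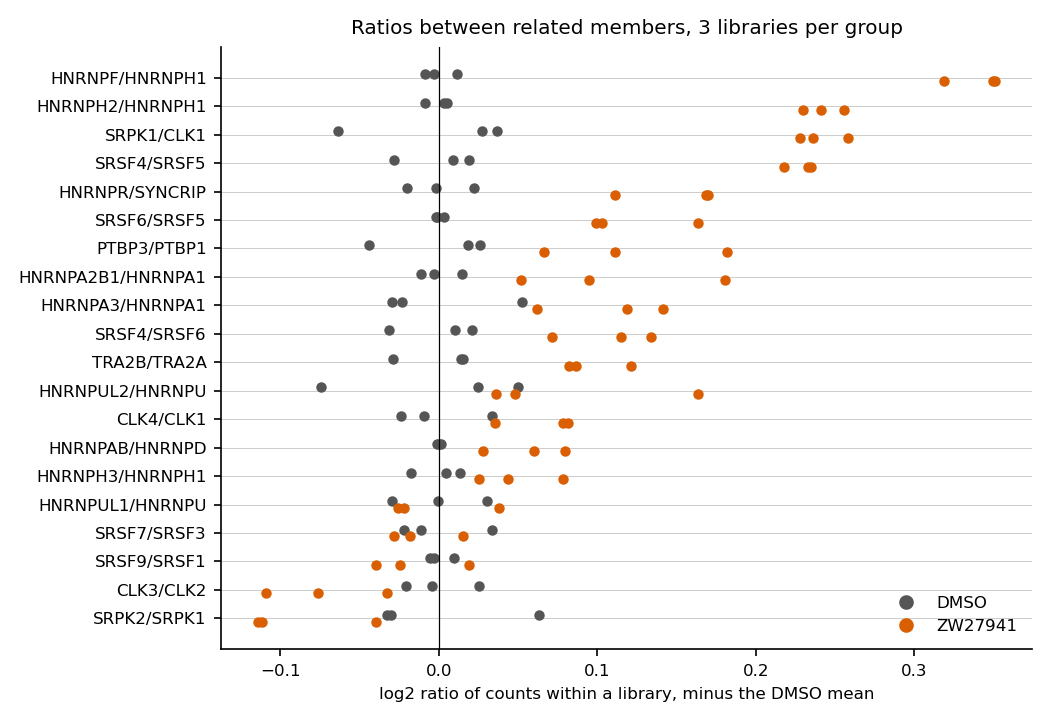
Log2 ratio of counts of 2 related genes within each library, minus the mean of the DMSO libraries (horizontal axis), for 20 pairs. Grey points are DMSO and orange points ZW27941 libraries; the largest shift is that of HNRNPF to HNRNPH1 at 0.34.

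Levels were compared between genes only as CPM per kilobase of the exons that GENCODE v29 (GRCh38) gives for the gene. HNRNPA1 was highest in DMSO, at 536 CPM per kilobase, followed by HNRNPA2B1 at 168, HNRNPK at 149 and HNRNPA3 at 128. By this length SRSF1 (104) and SRSF2 (97.1) led the SR proteins, at ranks 8 and 9 of the 40. The kinases were low, with SRPK2 at 6.34, CLK4 at 5.69 and CLK3 at 5.12 CPM per kilobase in the last 3 places, and CLK2 highest among them at 33.5. On ZW27941, HNRNPF went from 114 to 136 CPM per kilobase, above HNRNPC, which went from 118 to 108, and HNRNPF then also stood above HNRNPA3 (132) and HNRNPU (131). HNRNPA3 and HNRNPU, and likewise SRSF9 (76.6) and HNRNPAB (76.1), differed by less than their spread in DMSO. Rarely used exons count in full here, so that long annotated totals such as those of CLK3 (20.4 kilobases) and HNRNPU (22.5 kilobases) lower the value per kilobase. SRSF9 likewise has 3.74 kilobases of exons but a longest coding transcript of 1.20 kilobases. The order of the genes, that of the SR proteins included, therefore depends on the length used.

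**Figure D4:**
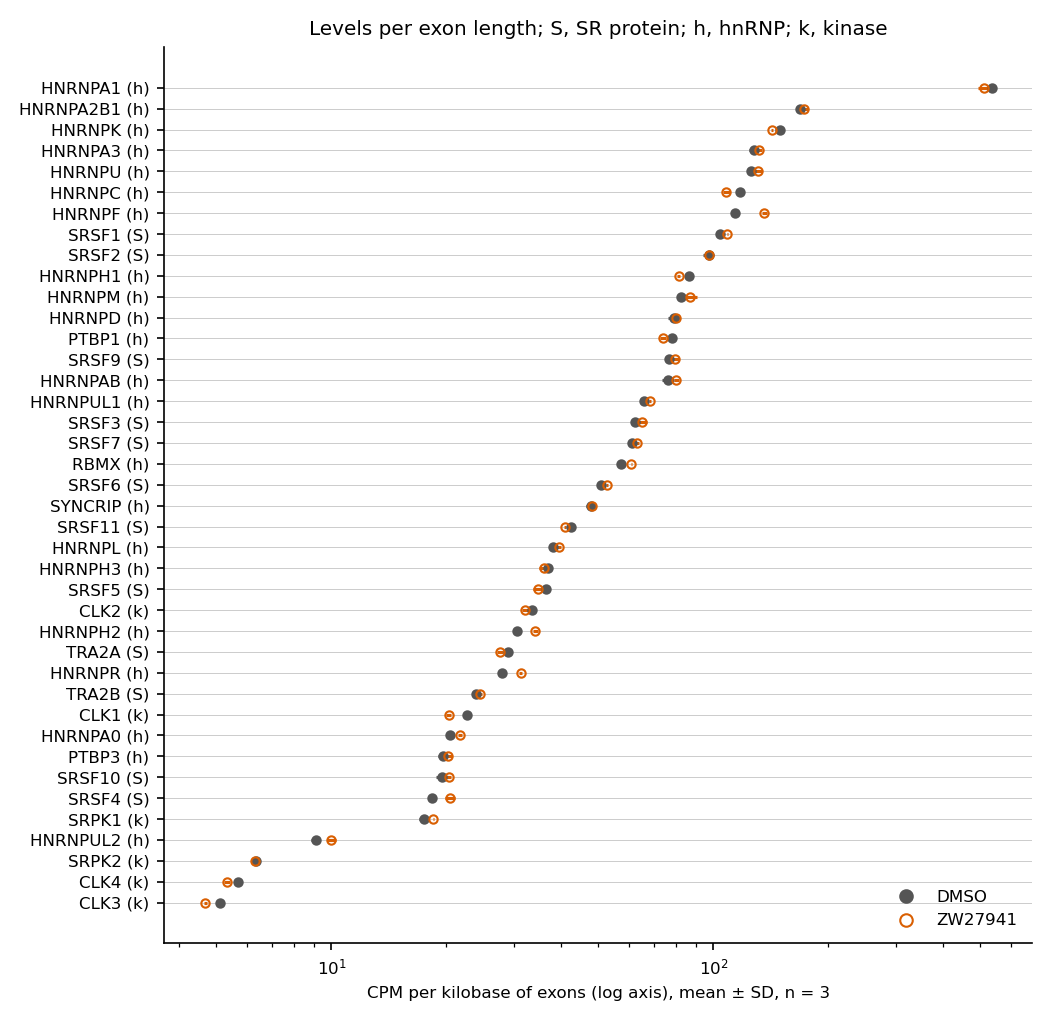
CPM per kilobase of annotated exons (log axis; mean and SD, n = 3) of the 40 genes in DMSO (filled) and on ZW27941 (open), ordered by the DMSO level. Levels span from 5.12 for CLK3 to 536 for HNRNPA1, and most pairs of points lie close together.

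Annotated features were also listed. The genes were chosen as splicing regulators, many of them known to limit their own output through poison exons. Their annotated decay transcripts are therefore not independent of that choice. GENCODE v29 gives at least 1 transcript of the nonsense-mediated decay type for 30 of the 40 genes (75%), beside 42.2% of the 12940 protein-coding genes tested. All 12 SR proteins, 13 of 22 hnRNPs and 5 of 6 kinases had one. Such a transcript was annotated for 8 of the 8 genes that fell, for 6 of the 10 that rose and for 16 of the 22 not called. HNRNPF, HNRNPH2, HNRNPA0 and HNRNPUL2, which rose, had 0. Transcripts with a retained intron were annotated for 30 of the 40 (75%) beside 56.8%. GGACT, the sequence most often methylated by the METTL3 complex, occurred at a median of 0.733 per kilobase in the longest coding transcript of the 40 genes and of 0.942 per kilobase over the protein-coding genes tested with a coding transcript (12918). The median was 0.684 for genes that rose, 0.835 for those that fell and 0.661 for those not called. HNRNPA2B1, HNRNPM, HNRNPAB and TRA2A held 0 such sites, and SRSF9 the most, at 3.33 per kilobase. The counts are per gene, so poison exons and retained introns were not measured, and neither was m6A.

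Shared sequence limits some of these counts. In the same annotation, exons of 23 of the 40 genes overlap those of another gene, over 60.7% of the exon bases of SRSF1, 46.2% of SRSF9 (GATC, on the other strand) and 36.7% of SRSF2 (MFSD11, on the other strand). Whether counting used strand is not given in the sources used here. HNRNPH2 shares 16.3% with a read-through transcript from RPL36A. In addition, 139 pseudogenes and other copies named after 22 of the genes were counted apart from them, and 31 passed the filter. Of these 2 rose (RBMXL1 and HNRNPH1P1) and 3 fell (HNRNPA1L2, HNRNPA1P48 and HNRNPA1P5). The other 26 were not called, whereas 30.1% of all genes tested were. HNRNPA1P5 was near 0 (0.186 CPM in DMSO and 0.0993 CPM on ZW27941), and HNRNPA1P48 passed with overlapping groups. HNRNPA1P7 had 2.35% of the counts of HNRNPA1, and HNRNPCP2 had 4.13% of those of HNRNPC. The largest of these shares among the genes tested was that of RBMXL1, at 5.57% of RBMX.

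Other genes of the pathway were taken from fixed lists. Of 25 other SR-related proteins tested, 6 rose and 4 fell (40% called). SRRM2 and SON, large scaffolds of nuclear speckles, rose by log2 fold changes of 0.17 and 0.16 (edgeR adjusted p = 4.22e-05 and 3.86e-05), and so did SCAF4 (0.12) and PNN (0.12). Of 32 other hnRNP-like proteins and splicing regulators, 8 rose and 5 fell (40.6% called). RBM15, a subunit of the m6A writer complex, rose by a log2 fold change of 0.36 and HNRNPLL, a paralog of HNRNPL that acts in lymphocytes, fell by 0.23 on the log2 scale (edgeR adjusted p = 7.75e-08 and 6.67e-07). PCBP2, which binds cytosine-rich RNA like HNRNPK, had a log2 fold change of −0.16, and RBM15B one of 0.16. Of 10 other kinases, phosphatases and importins of SR proteins, 2 rose and 1 fell (30% called). The phosphatase subunits PPP2CA and PPP1CC rose (log2 fold changes 0.21 and 0.16, edgeR adjusted p = 3.65e-06 and 1.90e-05), whereas the kinase DYRK1B, at 5.88 CPM in DMSO, had a log2 fold change of −0.46. Of 15 factors of nonsense-mediated decay, 2 rose (UPF3A and UPF3B, 0.068 and 0.12) and 2 fell (SMG5 and SMG9, −0.11 and −0.12), 26.7% called. Beside the 30.1% of all genes, a share not matched for level, the last 2 lists were near the background.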

How the data were processed

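Total RNA of MOLM13 cells (3 DMSO and 3 ZW27941 libraries, grouped by title) was sequenced. The authors deposited raw counts of reads per gene symbol for each library, without normalization or filter. The submitters' processing notes name hg38, HISAT2, SAMtools 1.19.2 and HTSeq 2.0.3. The annotation and strand setting are not given in the sources used here. HTSeq's 5 tallies of unassigned reads (37.4% to 39.8% of a library) were left out. Counts were fitted in R 4.3.3 with edgeR 4.0.16 (TMM, filterByExpr, quasi-likelihood test, Benjamini-Hochberg adjustment over all genes tested, threshold 0.05). On simulated data this fit recovered 30 of 50 genes changed by 0.15 on the log2 scale and 40 of 50 changed by 0.25, with 12 false calls. Only 50 of 20145 genes were changed at each size, whereas 30.1% were called in the data, so the adjusted threshold was stricter in the simulation. The changed genes were also not matched to the level of the members, so these rates do not apply to the members. A member that did not pass may still have changed by a small step. Standard errors are the absolute log2 fold change divided by the square root of the F statistic. Alternatives were other normalizations and filters, DESeq2 1.42.0, limma 3.58.1 (voom), the likelihood ratio test, a replicate block, an adjusted p of 0.01 and each library left out. Genes, lists and the rule for naming were chosen with earlier results of these data known. Members past the threshold are given per library, other members by levels and ranges, and up to 4 genes with the lowest p in each other list. The related pairs were chosen after the counts were seen. Exons, transcript types and transcripts came from GENCODE v29 (GRCh38), matched by symbol for all 40 genes, and promoters from RefSeq (GRCh38.p14) for 37.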

Additional observations from a re-analysis of the deposited data

How the results depend on the processing

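The number of genes past the threshold (6149) was 4836 to 6134 with 1 library left out (2691 to 3251 higher, 2131 to 2883 lower), and 4005 (1725 lower) at an adjusted p of 0.01. Members called were 12 to 19 with 1 library left out (7 to 12 higher, 5 to 10 lower), which covered 1 to 3 SR proteins higher and 0 to 2 lower, 6 to 8 hnRNPs higher and 2 to 5 lower, and 0 to 1 kinase higher and 3 to 4 lower. At an adjusted p of 0.01, 11 members were called, 4 of them lower, with 1 SR protein higher and 0 lower, 2 hnRNPs lower and 0 kinases higher; fewer follow from the stricter limit. Upper quartile normalization gave 6 members higher, with 1 SR protein higher, 3 SR proteins lower and 0 kinases higher, and medians of 0.024 (SR proteins), 0.022 (hnRNPs) and −0.10 (kinases); it moved the median of all genes to −0.025 and the share of lower calls over all genes from 45.8% to 57.9%. SR proteins higher were 1 with RLE and with the replicate block. SR proteins lower were 2 with RLE, 0 with library size only, 0 with no filter, 2 with at least 10 counts in every library, 3 with DESeq2 and 2 with limma voom. The kinase median was −0.067 with library size only and −0.084 to −0.071 with 1 library left out. The sign of 4 members that did not pass turned: SRSF2 to −0.00072 (RLE), −0.020 (upper quartile), −0.00071 (DESeq2) and −0.014 to 0.028 (1 library left out), HNRNPD to −0.0086 (upper quartile) and −0.0054 to 0.046, SYNCRIP to −0.0090 (upper quartile) and −0.0030 to 0.032, and SRPK2 to 0.0043 (library size only) and −0.028 to 0.0055. The cause was not tested. Same-numbered libraries of the 2 groups did not deviate together over all genes (correlations of −0.012, 0.012 and 0.017). This cannot tell whether they were prepared together, since noise between libraries may hide it. With the replicate block 6010 genes and 17 members were called. SRSF1 (edgeR adjusted p = 0.0573) and HNRNPK (0.0534) were lost and HNRNPA1 (0.0405) was gained. With fits that left out a library, the group of 2 shared its spread with the other libraries. What depth limits was not tested, since the counts exceed the raw reads stated in the labels.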
